A study of Mus musculus with 12 samples.

Results

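This account covers 10 genes listed as tanycyte genes (Rax, Gpr50, Adm, Frzb, Vim, Nes, Lhx2, Vcan, Fndc3c1 and Cd59a), in RNA sequencing of the mouse hypothalamus. The genes were taken by symbol from the authors' normalized CPM values (reads of a gene relative to its library's total), and all 10 were among the 32494 genes given. The rule that picks them uses no measured value, but the list was proposed with earlier results of these data known. The tissue came from 12 male mice that all carried floxed Smc3 alleles and all received tamoxifen, and it was collected 5 weeks after tamoxifen. Mice without the Camk2a-cre/ERT2 transgene were labelled WT (n = 7) and mice with it cKO (n = 5), and the titles of both groups also carry the word control, which was not used for grouping. The mice are described as 8 weeks old, at a step that the protocol leaves unsaid. Camk2a-cre/ERT2 places a tamoxifen-activated recombinase under a promoter of forebrain excitatory neurons, so in this model the recombination is directed at neurons and not at the cells for which the genes are named. The study asked what removal of Smc3, a subunit of the cohesin ring, from neurons of adult mice does. Mice are named here by their label and number.

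Tanycytes are elongated glial cells that line the floor and lower walls of the third ventricle, with one process reaching into the hypothalamus or the median eminence. They are known for moving thyroid hormone, metabolic hormones and nutrients between the ventricle, the blood and the hypothalamus, and for keeping features of neural progenitors in adult life. Rax is the transcription factor most often used to mark them. Several of the other genes are also made elsewhere in the brain: Vim, Nes and Adm in blood vessels, Vcan in oligodendrocyte precursors, Lhx2 in parts of the thalamus.

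The defining markers gave a mixed picture of the label. Rax rested on 0 to 9 reads per library and Fndc3c1 on 0 to 3, and neither reached the mean of 1 CPM that was required for testing. Of the other genes known from tanycytes, Crym had a mean of 0.684 CPM and Prss56 of 0.178 CPM. The arcuate neuron genes Agrp, with a mean of 0.791 CPM, and Kiss1, with 0.361 CPM, were also under 1 CPM. The other 4 of the 6 arcuate markers were higher, with means of 9.82 CPM for Tac2, 5.47 CPM for Npy and 2.81 CPM for Ghrh, and with Pomc at 3.02 to 22.9 CPM in 11 mice and 153 CPM in cKO 14. In the list of 15 further tanycyte genes 13 were above 1 CPM, among them Col25a1 at 110 CPM, Dio2 at 11.8 CPM and Six6 at 1.98 CPM. The 10 genes are called the listed genes below.

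Depth was 17.1 to 24.01 M reads (megareads) in 11 libraries and 68.7 M in WT 1. A count of 3 reads, used as the floor of a library, was between 0.0436 CPM (WT 1) and 0.178 CPM, and covers counting error only. Smc3, the targeted gene, went against the labels: it was 81.6 ± 3.14 CPM (SD, n = 7) in WT and 131 ± 10.3 CPM (n = 5) in cKO, with no overlap between 76.8 to 85.7 and 116 to 144 CPM. Which exons are floxed is not given in the sources used here. Groups are therefore written as the libraries labelled WT and cKO, and no direction below is tied to a measured loss of Smc3.

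No listed gene passed the test of a difference between the libraries labelled WT and cKO. In limma, fitted to log2(CPM + 1) over all 15359 tested genes with Benjamini-Hochberg adjustment, 0 of the 8 listed genes that reached 1 CPM passed an adjusted p of 0.05, against 14.1% of all tested genes (6.54% higher and 7.60% lower in cKO). At an unadjusted p of 0.05 the count was also 0 of 8, against 31.1% of all tested genes. Without WT 1, 1158 genes passed the adjusted threshold, beside 2172 with all 12 mice, and again no listed gene was among them. edgeR's quasi-likelihood test on whole reads recovered from the CPM called 0 of 8 (14.4% of all genes) and DESeq2 0 of 8 (17.9%), and 0 of 10 had a false discovery rate under 0.05 in the authors' deposited table (4.94% of all genes). The ranges of the groups overlapped in all 10 genes. They did not overlap in 6.73% of tested genes, which leave out Rax and Fndc3c1, and 10 genes are too few to differ from that share. The median log2 fold change of the 8 genes, cKO minus WT, was 0.029, beside 0.0092 over all tested genes, and 5 of the 8 were above 0. A p that misses the threshold does not show equality, so the interval of each difference is given with each gene.

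**Figure D1:**
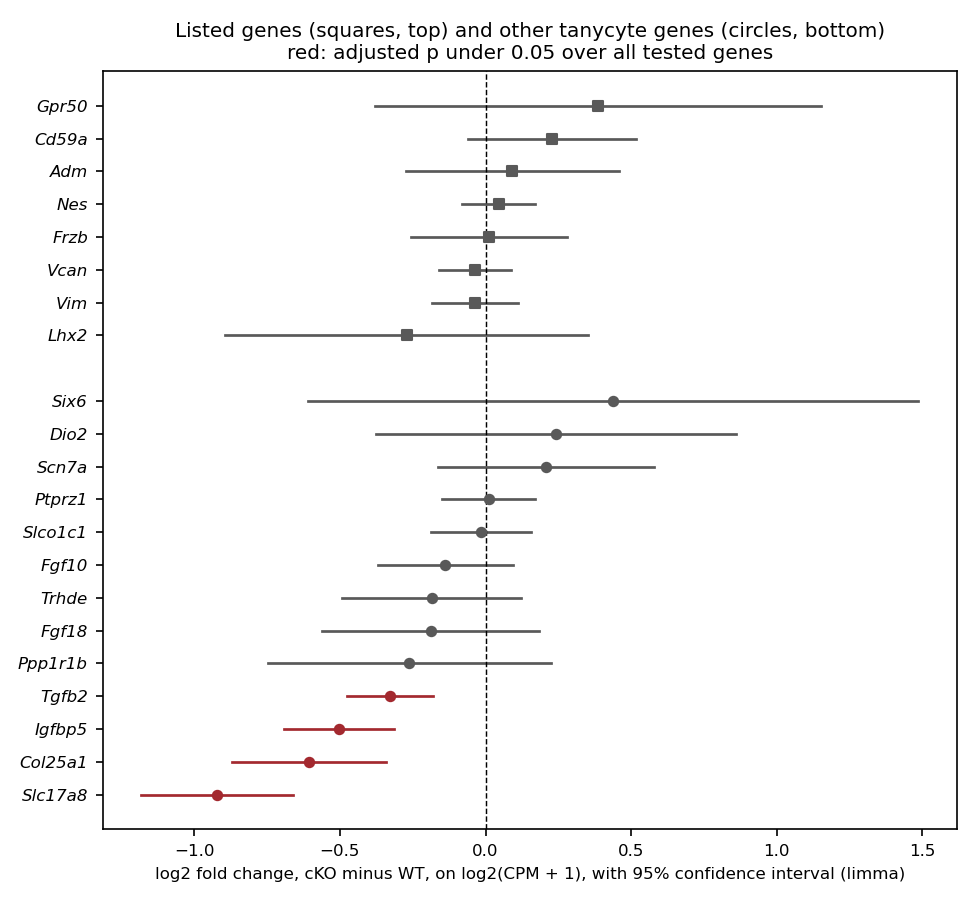
log2 fold change, cKO minus WT, on the log2(CPM + 1) scale (x axis, limma) for the 8 tested listed genes (squares, top) and 13 further tanycyte genes (circles, bottom), with 95% confidence intervals and 7 WT and 5 cKO mice. The intervals of all 8 listed genes cross 0, narrowly for Nes, Vcan and Vim and widely for Gpr50 and Lhx2, while the 4 further genes in red lie below 0.

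The first group is made of the transcription factors. Rax, a homeobox factor required for the eye and the ventral hypothalamus, was at 0.131, 0, 0, 0.134, 0.130, 0.083 and 0.222 CPM in WT 1, 4, 5, 6, 7, 11 and 15. In cKO 8, 9, 12, 13 and 14 it was at 0.126, 0.196, 0.233, 0.047 and 0.533 CPM. The groups overlapped, the highest value was in cKO 14, and 4 of the 12 libraries held fewer than 3 reads. Over all libraries the gene had 22 reads in WT, 9 of them in WT 1, and 22 in cKO. The mean was 0.10 ± 0.0799 CPM in WT and 0.227 ± 0.185 CPM in cKO, and the difference was not detectable at this depth (2-sided exact permutation test, p = 0.111). The test has 792 possible splits and a smallest p of 0.00126. The difference of 0.127 CPM became 0.0507 CPM without cKO 14 (exact permutation p = 0.330) and 0.172 CPM without cKO 13 (exact permutation p = 0.0303). The authors' deposited table gives Rax a log2 fold change of 1.04 with a false discovery rate of 0.401.

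Lhx2, a LIM homeobox factor needed for tanycyte development and also expressed in the thalamus, was at 11.6, 10.3, 10.5, 9.62, 16.1, 22.7 and 7.16 CPM in WT 1, 4, 5, 6, 7, 11 and 15. It was at 13.7, 13.3, 4.81, 6.12 and 14.6 CPM in cKO 8, 9, 12, 13 and 14. Both groups were wide: WT 11 and WT 7 were highest, cKO 12 and cKO 13 lowest. limma gave a log2 fold change of -0.27 (SE 0.29, interval -0.89 to 0.35, adjusted p = 0.565, limma), which leaves room for folds from 0.538 to 1.28. It was -0.052 without cKO 12 and -0.41 without cKO 14. With a marker score of thalamic neurons in the model the value changed sign to 0.46, with an adjusted p of 0.203 by limma.

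The signalling genes come next. Gpr50, an orphan receptor related to the melatonin receptors, was at 5.66, 1.97, 2.84, 11.6, 3.81, 3.14 and 12.5 CPM in WT 1, 4, 5, 6, 7, 11 and 15. In cKO 8, 9, 12, 13 and 14 it was at 7.68, 3.82, 6.95, 7.55 and 8.82 CPM. The values labelled cKO lay inside the range of WT, where WT 6 and WT 15 stood high and the other 5 mice below 6 CPM. On the log2 scale the difference was 0.39 (SE 0.36, interval -0.38 to 1.15, adjusted p = 0.491, limma), or a fold between 0.770 and 2.22. Leaving out 1 mouse moved it from 0.22 without WT 4 to 0.58 without WT 15. The sign turned, to -0.14, with the marker score of thalamic neurons in the model.

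Adm encodes adrenomedullin, a vasodilator peptide. It was at 0.785, 1.73, 2.05, 0.850, 1.298, 0.826 and 0.756 CPM in WT 1, 4, 5, 6, 7, 11 and 15, and at 0.881, 0.931, 1.07, 2.04 and 1.66 CPM in the cKO mice in order of number. WT 4, WT 5, cKO 13 and cKO 14 were the high libraries, so that each group held some of them. Its log2 fold change was 0.09 (SE 0.17, interval -0.27 to 0.46, adjusted p = 0.757, limma), on 17 to 54 reads per library. Frzb, a secreted antagonist of Wnt ligands, was at 4.14, 3.50, 4.51, 4.43, 4.28, 2.69 and 4.54 CPM in WT and at 2.77, 3.97, 4.81, 4.46 and 4.32 CPM in cKO, in the same order. The lowest mouse was WT 11 in WT and cKO 8 in cKO, and neither was flagged as far from the rest of its group. The log2 fold change was 0.013 (SE 0.12, interval -0.25 to 0.28, adjusted p = 0.961, limma). It ranged from -0.059 without WT 11 to 0.12 without cKO 8.

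The structural genes were the most even. Vim, the intermediate filament protein of radial glia, tanycytes and vessels, was at 40.5, 35.0, 44.9, 41.5, 42.6, 33.6 and 44.4 CPM in WT 1, 4, 5, 6, 7, 11 and 15, and at 38.5, 38.3, 39.9, 40.2 and 38.8 CPM in cKO. The cKO values lay within 2 CPM of each other and inside the WT range. The difference, as a log2 fold change, was -0.036 (SE 0.07, interval -0.18 to 0.11, adjusted p = 0.762, limma), so the fold lay between 0.880 and 1.08. Nes, the intermediate filament protein nestin of neural progenitors, was at 16.1, 17.8, 18.7, 17.2, 16.5, 15.2 and 16.95 CPM in WT and at 17.8, 17.99, 18.2, 18.04 and 15.5 CPM in cKO. WT 11 and cKO 14 were the low libraries. Its log2 fold change was 0.046 (SE 0.06, interval -0.08 to 0.17, adjusted p = 0.639, limma), a fold between 0.946 and 1.13. Without single mice the Nes value ranged from 0.021 to 0.086, and with the thalamic score as a covariate it was -0.031. Vcan, the matrix proteoglycan versican, was at 26.3, 27.8, 24.9, 24.6, 22.8, 24.5 and 27.45 CPM in WT and at 22.3, 25.5, 26.5, 24.7 and 24.9 CPM in cKO. The ranges covered nearly the same values. A log2 fold change of -0.035 was found (SE 0.06, interval -0.16 to 0.09, adjusted p = 0.718, limma), a fold between 0.896 and 1.06. Across these 3 genes the 95% intervals reached a fold of 1.13 at the upper end and 0.880 at the lower end, on the log2(CPM + 1) scale.

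The last pair holds a surface protein and a gene of less known function. Cd59a, a membrane-anchored inhibitor of the complement attack complex, was at 11.96, 18.2, 13.4, 11.2, 13.1, 8.59 and 11.97 CPM in WT 1, 4, 5, 6, 7, 11 and 15. It was at 14.8, 13.2, 14.1, 18.3 and 13.5 CPM in cKO 8, 9, 12, 13 and 14. All 5 cKO values were above 5 of the 7 WT values, WT 5 lay among them, and WT 4 was close to cKO 13, the highest. The log2 fold change was 0.23 (SE 0.13, interval -0.06 to 0.52, adjusted p = 0.267, limma), and the exact permutation p was 0.198. The mean difference of 2.14 CPM became 1.27 CPM without cKO 13 (exact permutation p = 0.433) and 3.06 CPM without WT 4 (exact permutation p = 0.00866), where limma's adjusted p was 0.0764. Fndc3c1, a gene of the fibronectin type III family, had 12 reads in all WT libraries and 4 in all cKO libraries. It was listed at 0 in cKO 9, 12 and 13 and had fewer than 3 reads in 10 of 12 libraries, so no fold is given (exact permutation p = 0.294). Its difference of -0.0267 CPM became -0.0174 CPM without cKO 9, cKO 12 or cKO 13 (exact permutation p = 0.494) and -0.0489 CPM without cKO 8 (exact permutation p = 0.0303).

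**Figure D2:**
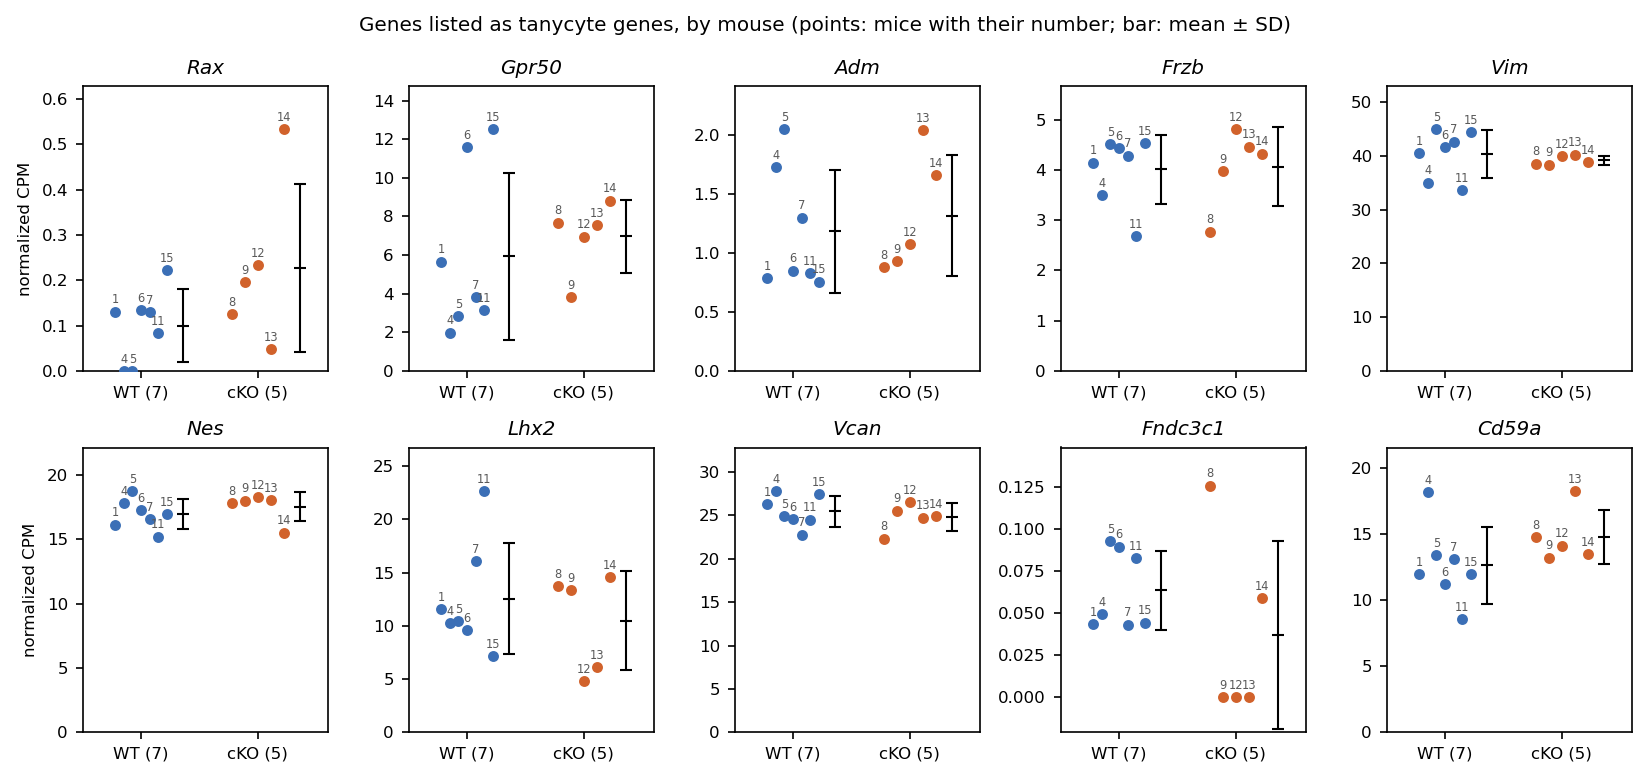
Normalized CPM (y axis, own scale per gene) of the 10 listed genes in each mouse, labelled by its number, with the mean ± SD of 7 WT (blue) and 5 cKO (orange) mice. The groups overlap in every panel, and Gpr50 and Lhx2 spread far more than Vim, Nes and Vcan.

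Levels were compared between genes per kilobase of exon, using the GENCODE M21 exon lengths. Vim was highest at 8.40 ± 0.709 CPM per kb (SD, n = 12), next to Cd59a at 7.47 ± 1.4985 CPM per kb, and their ranges overlapped. Nes followed at 2.68 ± 0.176 CPM per kb, below the range of Cd59a. Next came Lhx2 at 2.66 ± 1.11, Gpr50 at 2.07 ± 1.12 and Vcan at 1.74 ± 0.115 CPM per kb, each overlapping its neighbour. The highest Lhx2 value, 5.16 CPM per kb, lay above the lowest of Cd59a, 4.74 CPM per kb. Frzb, at 1.25 ± 0.214 CPM per kb, lay below the range of Vcan and overlapped Adm, at 0.765 ± 0.307. Rax, at 0.0262 ± 0.0243, and Fndc3c1, at 0.00832 ± 0.00638 CPM per kb, were separated from all the others and overlapped each other. The annotation the authors counted on is not given in the sources used here, so these lengths may differ from theirs.

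The listed genes differed from each other in how far they spread between mice of a group. The residual SD of Gpr50 was 0.71 log2 units and that of Lhx2 0.58, higher than in 98.6% and 99.0% of the 500 tested genes closest in mean level. Adm, at 0.32, stood at 91.6% and Cd59a, at 0.26, at 89.4%. Frzb (0.23) and Vim (0.13) stood at 69.0% and 76.6%, while Vcan (0.09) and Nes (0.09) were at 38.2% and 28.2%. Over all 12 mice the highest value was 6.34 times the lowest for Gpr50, 4.72 times for Lhx2 and 1.23 times for Nes.

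**Figure D3:**
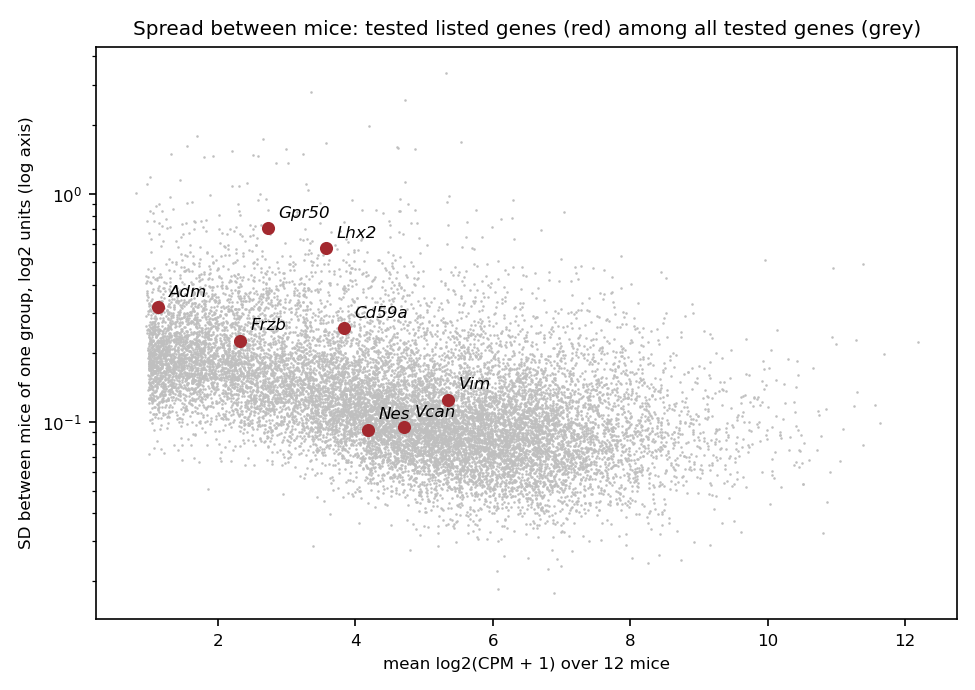
Residual SD between mice of a group in log2 units (y axis, log scale) against mean log2(CPM + 1) over 12 mice (x axis) for all 15359 tested genes (grey), with the 8 tested listed genes in red. Gpr50 (0.71) and Lhx2 (0.58) lie near the top of genes of their level, and Nes and Vcan lie within the body of the cloud.

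Few relations between the listed genes were detected across the 12 mice, and a pair that missed the threshold is not shown to be unrelated. Relations were computed on log2 values less their own group's mean, over 12 mice, with permutation within groups. Of the 28 pairs of tested genes, a family added after seeing the data, 1 passed a Benjamini-Hochberg adjusted p of 0.05 and 17 had a positive r, with a median r of 0.13. The pair was Frzb and Vim (Pearson's r = 0.749, permutation p = 0.00014, adjusted p = 0.00392; Spearman's rho = 0.839, permutation p = 0.0003). Without WT 11 and cKO 8, the 2 mice farthest from the Frzb median, r was 0.830, and it was 0.940 within WT and 0.638 within cKO. Leaving out 1 mouse at a time gave r from 0.553 (without WT 11) to 0.924 (without cKO 8), with every adjusted p under 0.05. WT 11 and WT 4 were lowest in Vim, and WT 11 and cKO 8 lowest in Frzb. The relation was not particular to this pair: among 15358 tested genes Vim ranked 276 by r with Frzb, and Frzb ranked 102 by r with Vim.

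Of the 9 relations of Rax with the other listed genes none passed the adjusted threshold, and 2 had an unadjusted permutation p under 0.05. Gpr50 had r = 0.497 (permutation p = 0.0403, adjusted p = 0.181, rho = 0.708) and Nes r = -0.660 (permutation p = 0.0349, adjusted p = 0.181, rho = -0.690). Without cKO 14 and cKO 13, the mice farthest from the Rax median, these were 0.734 and -0.437. The 5 tested genes with the highest r to Rax were Ccdc166 (0.965), Lancl3 (0.914), Ntrk2 (0.912), Polr1a (0.912) and Mtmr3 (0.908) among 15359, over 12 mice. Since the Rax values rest on 0 to 9 reads each, this order is a description of counts near the floor.

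The listed genes were also set beside marker scores of other cell types, in 112 relations chosen after seeing the data. A marker score is the mean log2(CPM + 1) of a list of genes, and 2 relations passed the adjusted threshold. Lhx2 followed the thalamic neuron score (r = 0.843, permutation p = 0.00061, adjusted p = 0.0342; rho = 0.769, permutation p = 0.0042), with 0.951 within WT and 0.743 within cKO. Without WT 11 and cKO 12, r was 0.696. Leaving out single mice kept r between 0.776 and 0.944, but the adjusted p was above 0.05 in 9 of these 12 cases, and the part of thalamic tissue in the Lhx2 values was not tested beyond the covariate fit above. Nes went against the arcuate neuron score (r = -0.797, permutation p = 0.00057, adjusted p = 0.0342; rho = -0.804, permutation p = 0.00082), with -0.845 within WT and -0.839 within cKO. Without cKO 14 and WT 11 its r was -0.654, and with single mice left out the adjusted p was above 0.05 in 10 of 12 cases. The genes closest to Lhx2 across mice, named after their values were seen, were Zic2 (r = 0.973), Marchf3 (0.964), Gbx2 (0.963) and Lhx9 (0.946) among 15358. Gbx2, which is one of the thalamic markers, reached 68.7 CPM in WT 11 and 6.62 CPM in cKO 12, the mice with the highest and lowest Lhx2.

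**Figure D4:**
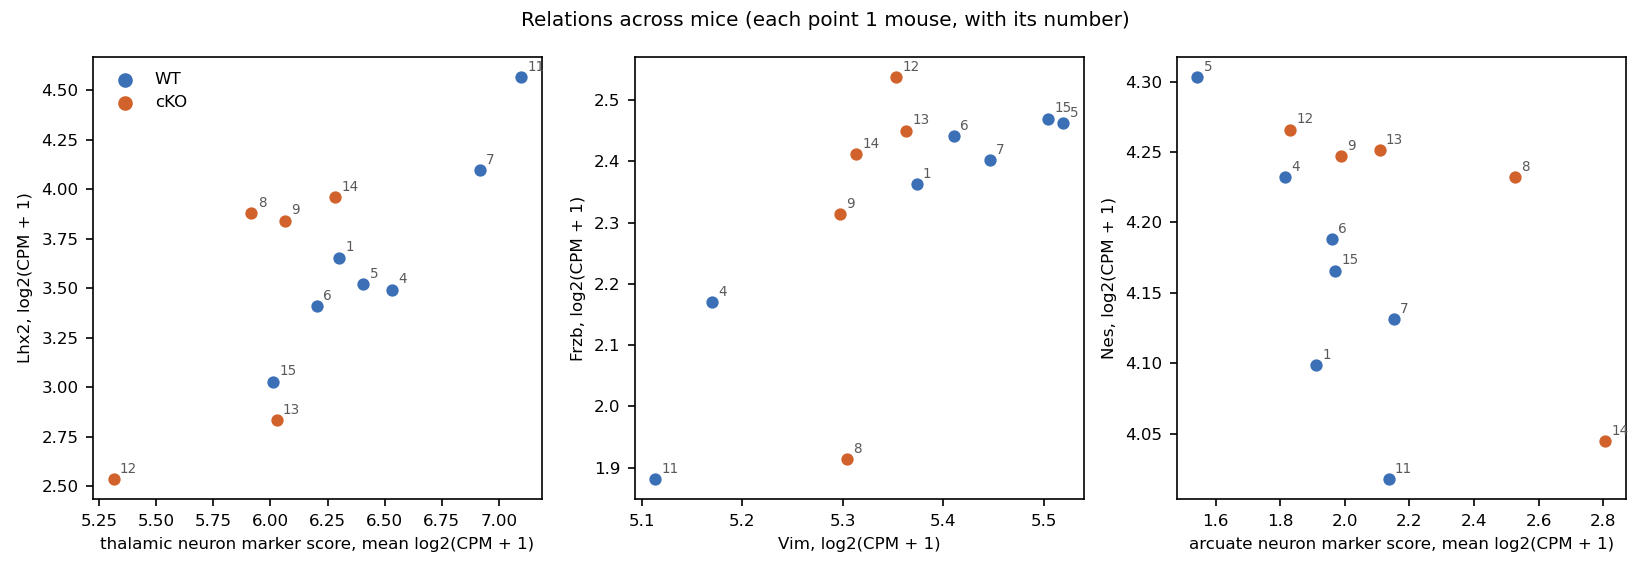
Each point is 1 mouse, numbered, blue for WT and orange for cKO, on log2(CPM + 1) axes that are not centred by group: Lhx2 against the thalamic neuron score (left), Frzb against Vim (middle) and Nes against the arcuate neuron score (right). Lhx2 rises with the thalamic score in both groups, WT 11 and cKO 12 lie at its ends, and Nes falls as the arcuate score rises.

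Of 13 tested further tanycyte genes, 4 fell in the libraries labelled cKO and 0 rose. With a score of thalamic neuron markers as a covariate 1 of the 4, Slc17a8, still passed, as detailed with those markers. Over all tested genes 753 passed with that covariate and 2172 without it, and the shares that follow are without it. The 4 were 30.8% of the tested genes of the list, beside 7.60% of all tested genes that were lower in cKO, and the median log2 fold change of the list was -0.18. The list was drawn up with earlier results of these data known. Slc17a8, the vesicular glutamate transporter VGLUT3, was at 7.65, 7.39, 7.07, 9.44, 11.6, 9.29 and 8.72 CPM in WT 1, 4, 5, 6, 7, 11 and 15. It was at 3.06, 3.97, 3.92, 4.51 and 5.21 CPM in cKO 8, 9, 12, 13 and 14, all below the lowest WT mouse. The log2 fold change was -0.92 (SE 0.12, adjusted p = 0.00181, limma), at 0.473 times the WT mean.

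Igfbp5, a secreted binder of insulin-like growth factors, fell from 285 ± 32.3 CPM (244 to 338) to 201 ± 24.5 CPM (169 to 228), with a log2 fold change of -0.50 (SE 0.09, adjusted p = 0.00478, limma). Col25a1, a membrane collagen, fell from 129 ± 30.2 CPM (102 to 192, highest in WT 11) to 83.1 ± 5.29 CPM (78.0 to 90.4), a log2 fold change of -0.60 (SE 0.12, adjusted p = 0.00935, limma). Tgfb2, a growth factor of the TGF-beta family, fell from 16.5 ± 1.58 CPM (14.3 to 18.9) to 12.9 ± 0.839 CPM (11.8 to 14.1), a log2 fold change of -0.33 (SE 0.07, adjusted p = 0.0103, limma). The ranges of the groups did not overlap in any of the 4, which holds for 3.20% of tested genes in the same direction, and all 4 kept an adjusted p under 0.05 without any single mouse. The 4 were picked by limma on these same values, so the lack of overlap adds no separate support. Since these are measures of bulk tissue, fewer cells of a type and less RNA per cell cannot be told apart. None of the 4 is confined to tanycytes: several are also known from neurons.

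**Figure D5:**
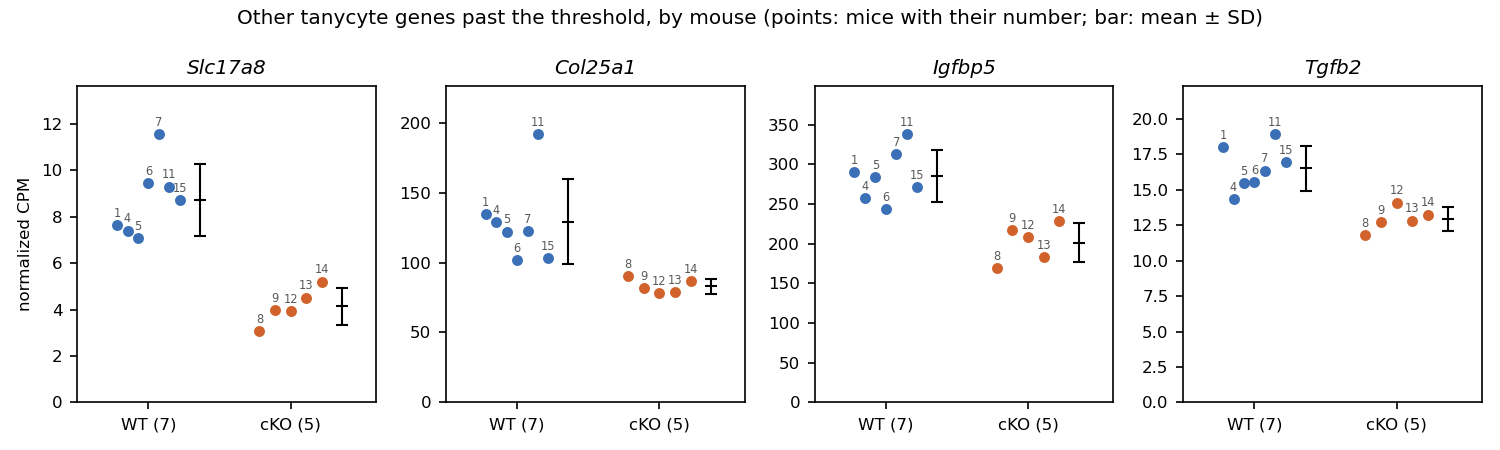
Normalized CPM (y axis, from 0) of the 4 further tanycyte genes that fell, in each mouse, with the mean ± SD of 7 WT (blue) and 5 cKO (orange) mice. The lowest WT mouse lies above the highest cKO mouse in each panel.

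The other tested genes of the list did not pass. Dio2, the deiodinase that activates thyroid hormone, ranged from 4.91 CPM in cKO 8 to 25.5 CPM in cKO 13, with a log2 fold change of 0.24 (SE 0.29, adjusted p = 0.609, limma). Six6, a homeobox gene of the ventral hypothalamus, ranged from 0.0465 to 5.16 CPM, with values near the floor in WT 4, WT 5 and cKO 12. Slco1c1, a thyroid hormone transporter of vessels and glia, was at 44.3 ± 3.35 CPM in WT and 44.1 ± 6.14 CPM in cKO. The log2 fold changes of the remaining 6 were -0.26 for Ppp1r1b, -0.19 for Fgf18, -0.18 for Trhde, -0.14 for Fgf10, 0.011 for Ptprz1 and 0.21 for Scn7a, with adjusted p from 0.411 to 0.941 in limma.

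Markers of other cell types were set beside these results. Over all tested genes limma called 14.1%, 6.54% higher and 7.60% lower in cKO. Of 8 thalamic neuron markers 3 fell in cKO (Prkcd with a log2 fold change of -1.44, Ntng1 with -0.53 and Adarb1 with -0.41), with a list median of -0.50 and a summed level of 913 to 1596 CPM in WT and 678 to 1020 CPM in cKO. Ntng1 was lost in 4 of the 12 fits without 1 mouse (without WT 7, cKO 8, cKO 12 or cKO 13, adjusted p up to 0.0618). It was also lost in 2 of the 12 processing alternatives. The thalamic score was 6.496 ± 0.389 in WT and 5.92 ± 0.365 in cKO (exact permutation p = 0.0227, 0.297 adjusted over 14 lists). With this score as a covariate 753 of all tested genes passed in limma, beside 2172 without it. Of the 13 further tanycyte genes 1 passed in that fit, Slc17a8 at -0.78 (adjusted p = 0.0170, limma). Igfbp5 was at -0.37 (adjusted p = 0.0533), Tgfb2 at -0.32 (adjusted p = 0.0624) and Col25a1 at -0.36 (adjusted p = 0.102) with that covariate. None of 7 ependymal, 8 astrocyte, 7 endothelial, 6 mural or 5 microglial markers passed in limma, nor did any of 5 oligodendrocyte, 5 fibroblast or 4 choroid plexus markers, and the summed ependymal level was 61.5 to 113 CPM in WT and 63.0 to 122 CPM in cKO. Arcuate neuron markers, of which Agrp and Kiss1 were under 1 CPM, summed to 14.97 to 36.8 CPM in WT and 23.3 to 173 CPM in cKO, where the highest sum was in cKO 14 with its 153 CPM of Pomc. None of the 4 tested arcuate markers passed in limma (0 also at an unadjusted p under 0.05), and the score had an exact permutation p of 0.0947 (0.297 adjusted over 14 lists). Of 4 pars tuberalis and pituitary markers 3 were under 1 CPM, with summed levels of 1.57 to 2.34 CPM and 1.51 to 2.61 CPM. Of 4 oligodendrocyte precursor markers 2 rose in limma, Gpr17 (log2 fold change 0.39, adjusted p = 0.0142) and Pdgfra (0.14, adjusted p = 0.0476), and the second was lost in 9 of the 12 fits without 1 mouse and in 4 processing alternatives. Cspg4 and C1ql1 did not pass, and the authors' deposited log2 fold changes for them were 0.050 and -0.21. The score of this list was 5.49 ± 0.237 in WT and 5.59 ± 0.190 in cKO (exact permutation p = 0.426, 0.745 adjusted over 14 lists). With the thalamic score as a covariate Gpr17 (adjusted p = 0.0824), Pdgfra (adjusted p = 0.203) and Cux2 (adjusted p = 0.0872) did not pass in limma, nor did Prkcd, Ntng1 and Adarb1, which are part of that score. Over all 12 processing alternatives the log2 fold change was 0.38 to 0.42 for Gpr17, 0.12 to 0.15 for Pdgfra and -0.30 to -0.24 for Cux2. Of 6 cortical and striatal markers Cux2 fell (log2 fold change -0.29), and of 6 general neuron markers Stmn2 rose (0.20), a call lost without WT 1 (adjusted p = 0.0518, limma). The part of these cell types in the 4 falls was not tested beyond the covariate.

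Genes of the pathways around the listed genes showed few calls. Over 8 lists, 5 of 69 tested genes passed in limma, 1 higher and 4 lower, beside 14.1% of all tested genes. The count depended on the processing: it was 20 with arrayWeights, where 5126 of all genes passed, and 1 with the thalamic score. Among 17 Wnt ligands, receptors and antagonists, 3 fell. The receptor Fzd1 went from 35.5 ± 3.19 to 25.4 ± 4.51 CPM (log2 fold change -0.48, adjusted p = 0.00811, limma). The receptor Fzd8 went from 10.1 ± 0.545 to 7.43 ± 1.44 CPM (-0.42, adjusted p = 0.0128, limma), and the ligand Wnt5a from 17.2 ± 2.998 to 11.6 ± 3.51 CPM (-0.54, adjusted p = 0.0322, limma). Wnt5a was above the threshold in 5 of the 12 fits without 1 mouse (without WT 1, WT 4, cKO 8, cKO 9 or cKO 14, highest adjusted p 0.0789). It was also above the threshold in 1 of the 12 processing alternatives, which was not the fit with the thalamic score. Among 15 transcription factors of progenitors and the hypothalamus, only the Notch target Hes5 passed, rising from 26.1 ± 3.25 to 32.3 ± 2.16 CPM (0.30, adjusted p = 0.0244, limma), and it was lost without WT 1 or cKO 9 (highest adjusted p 0.0610).

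Of 7 complement regulators, the receptor gene Cd46 fell from 11.1 ± 1.72 to 8.33 ± 0.951 CPM (-0.36, adjusted p = 0.0366, limma), while its relative by function, Cd59a, did not pass. The Cd46 call was lost in 8 of the 12 fits without 1 mouse, with adjusted p up to 0.0916. It was also lost in 3 of the 12 processing alternatives. With the thalamic score as a covariate, Wnt5a was the one gene of the 69 that passed in limma (-0.86, adjusted p = 0.0129). The other calls kept their sign there: Fzd1 was at -0.37 (adjusted p = 0.0787), Fzd8 at -0.37 (adjusted p = 0.0918), Cd46 at -0.29 (adjusted p = 0.217) and Hes5 at 0.19 (adjusted p = 0.235). None passed among 3 tested melatonin and thyroid hormone genes, 5 of the adrenomedullin system, 9 intermediate filaments, 11 lecticans and link proteins, and the 2 Fndc3 relatives. In those lists the counts at an unadjusted p under 0.05 in limma were 0, 0, 4, 2 and 0, beside 31.1% of all tested genes.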

How the data were processed

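Messenger RNA from hypothalamus was sequenced in 12 libraries. Per the labels' protocols, RNA was column-purified and the library kit was NEBNext Ultra II. STAR, SAMtools and Subread's featureCounts are named in the submitters' processing notes; build, annotation and strand are not given in the sources used here. The authors deposited normalized CPM, and log2 fold changes, p-values and false discovery rates (FDR) from their own test, per the file headers. Each library's CPM were whole multiples of 1 step for 100% of values (tolerance 0.001), so whole reads were recovered. The scaling factors matched TMM factors (0.987 to 1.02). Pairs of libraries of a group differed by a chi-square per degree of freedom of 3.04 to 26.3, so each counted once. The labels do not say more of the mice than their numbers, so p-values measure the spread between these samples.

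limma (3.58.1, R 4.3.3) with trend was fitted on log2(CPM + 1), pseudocount 1, over the 15359 genes averaging 1 CPM or more. Fold changes on this scale understate those of low genes. Single values used an exact permutation test over 792 splits, and correlations 100000 permutations within groups. edgeR (4.0.16) and DESeq2 (1.42.0) on the recovered reads, other scalings, minimums, weights, marker score covariates and leaving out mice were the alternatives. On simulated data limma recovered 187 of 198 genes changed by 1 log2 unit (94.4%), with 7 false calls among 15280 tested genes.

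Named genes were all listed genes, up to 5 past the threshold per other list, and the 5 nearest to Rax. Other named genes fall outside this rule and were picked with their values known. The listed genes and lists were chosen with earlier results of these data known. A gene first placed in the further tanycyte list is not reported here and is in none of its counts.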

Additional observations from a re-analysis of the deposited data

Results flagged for a closer look

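Of 82 groups of values examined for a single mouse far from the rest, 6 had one, where chance gives about 5%, or 4.1. Among the listed genes it was Nes in cKO 14, at 15.5 CPM with the next cKO mouse at 17.8. Col25a1 in WT 11 stood at 192 CPM, with the next WT mouse at 134 CPM. Gpr17, a marker of oligodendrocyte precursors that rose in cKO, was at 42.3 CPM in WT 4 (next 52.0) and at 88.7 CPM in cKO 8 (next 69.9). The depth of WT 1 was 68.7 M reads (megareads), with the next WT library at 24.01 M. The neuron marker score of cKO 13 was 9.36, with the next cKO mouse at 9.23.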

How the results depend on the processing

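No listed gene passed the adjusted threshold in any alternative run: 0 of 190 values, of which 176 kept the sign of the main value. The rest changed sign. Frzb was -0.038 with arrayWeights, -0.17 with the thalamic score and -0.037 with the endothelial score as a covariate. With the thalamic score Gpr50 was -0.14, Nes -0.031 and Lhx2 0.46, and with the endothelial score Adm was -0.040. Without single mice Frzb ranged from -0.059 to 0.12 (CPM difference -0.169 to 0.377), Adm from -0.013 to 0.18 (-0.0483 to 0.277) and Vcan from -0.061 to 0.00074. Exact tests of the listed genes gave 0 to 1 calls. Over all genes 5126 passed with arrayWeights and 753 with the thalamic score, and 1158 (without WT 1) to 2302 (without WT 5) without a mouse. Of the further tanycyte genes 1 passed with the thalamic score. Of the pathway lists 3 passed with no minimum, 20 with arrayWeights, 1 with the thalamic, 12 with the ependymal and 12 with the endothelial score, and 2 to 6 without a mouse. What causes these shifts was not tested. A minimum mean of 5 CPM gave no value for Adm and Frzb. The relation of Lhx2 with the thalamic score had an adjusted p of 0.0515 after median centring, and that of Nes with the arcuate score 0.135 there and 0.137 after quantile normalization. Depth limits Rax and Fndc3c1. No paired analysis was possible because the groups share no mouse number.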

Other observations

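In values seen only after the comparison was made, the 2 libraries with no Rax read, WT 4 and WT 5, also had the lowest Gpr50 of all mice, at 1.97 and 2.84 CPM. They had the lowest Six6 too, at 0.0493 and 0.0465 CPM, or 1 read each. The pattern did not hold in cKO 12, where Six6 was also near the floor at 0.0933 CPM (2 reads). There Rax was at 0.233 CPM and Gpr50 at 6.95 CPM. WT 11 held the highest Lhx2 (22.7 CPM), Gbx2 (68.7 CPM) and Lhx9 (62.7 CPM) and the lowest Vim (33.6 CPM), Frzb (2.69 CPM), Nes (15.2 CPM) and Cd59a (8.59 CPM) of the 12 mice. The genes nearest to Frzb across mice were Zeb1 (r = 0.927) and the Wnt genes Fzd2 (0.925) and Wnt7b (0.924) among 15358, as a description over 12 mice with no test. Vcan ran against the microglial score (r = -0.850, permutation p = 0.00166, rho = -0.790), with an adjusted p of 0.0620 over the 112 relations.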
